A study of Mus musculus with 9 samples.

Results

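The genes described here are 10 amino acid transporter genes of 4T1 mouse mammary carcinoma cells, of 24421 genes in the table: Slc7a11, Slc7a5, Slc3a2, Slc7a1, Slc7a3, Slc1a4, Slc1a5, Slc38a1, Slc38a2 and Slc6a9. They were chosen by name, and Slc7a11 was selected on its measured difference between 3D and 2D cultures, so the members' values in that comparison are given below as a description, and the number of them called there is printed beside the share of all genes called and supports nothing. Poly(A) RNA was sequenced from 9 libraries, 3 in each of 3 conditions, all of the 4T1 line and all kept for 5 days in medium with serum. The conditions were 3D spheroids on soft agar without added palmitate, 3D spheroids with 75 µM palmitate added, and attached 2D monolayers with 75 µM palmitate added. Palmitate was given coupled to bovine serum albumin, and per the study's methods cultures without added fatty acid received albumin and ethanol alone. Monolayers lacking the added palmitate were not analysed here, and palmitate was compared in spheroids only.

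Cells take up amino acids through solute carriers with overlapping substrates. The product of Slc7a11, xCT, exchanges intracellular glutamate for extracellular cystine, the source of cysteine for glutathione, and the product of Slc7a5, LAT1, takes up large neutral amino acids such as leucine. Both are light chains that reach the cell surface bound to the same heavy chain, the product of Slc3a2. Slc7a1 and Slc7a3 encode carriers of the cationic amino acids arginine and lysine, Slc1a4 and Slc1a5 encode exchangers of small neutral amino acids, glutamine among those of Slc1a5, Slc38a1 and Slc38a2 encode sodium-coupled carriers of glutamine and alanine, and Slc6a9 encodes the glycine transporter GlyT1. Several of these genes are known targets of ATF4, the transcription factor of the amino acid response, which binds composite C/EBP-ATF elements, and Slc7a11 is also known as a target of NRF2, the factor of the oxidative stress response, which binds antioxidant response elements.

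The 250 bases before the transcription start in RefSeq (assembly GRCm38.p6) were at hand for 6 of the 10 genes, with 9 promoters in all, but not for Slc7a5, Slc7a3, Slc1a5 and Slc38a1. They were searched on both strands for the C/EBP-ATF letters TGATGNAAN, the antioxidant letters TGACNNNGC and the E-box CACGTG. The promoter of Slc7a11 is shown because it held 2 C/EBP-ATF matches, that of Slc3a2 because its product is the partner of the Slc7a11 product and the promoter held no match, and those of Slc7a1 and Slc38a2 because each held 1 antioxidant match. Each is written 5′ to 3′ on the strand of its gene, which is the minus strand for all 4, with matches in capitals. They lie at chr3:50443614-50443863 (Slc7a11), chr19:8713898-8714147 (Slc3a2), chr5:148399905-148400154 (Slc7a1, the first of 2 promoters) and chr15:96699729-96699978 (Slc38a2). The Slc3a2 window lies inside the annotated span of its gene (chr19:8706882-8723369). The bases before the outer start of that span, at 8723369, were not searched.
Slc7a11: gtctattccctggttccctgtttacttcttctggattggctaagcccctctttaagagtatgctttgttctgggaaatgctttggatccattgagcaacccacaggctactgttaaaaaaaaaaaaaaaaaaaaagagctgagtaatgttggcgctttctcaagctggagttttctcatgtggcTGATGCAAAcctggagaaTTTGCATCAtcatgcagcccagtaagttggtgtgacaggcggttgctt
Slc3a2: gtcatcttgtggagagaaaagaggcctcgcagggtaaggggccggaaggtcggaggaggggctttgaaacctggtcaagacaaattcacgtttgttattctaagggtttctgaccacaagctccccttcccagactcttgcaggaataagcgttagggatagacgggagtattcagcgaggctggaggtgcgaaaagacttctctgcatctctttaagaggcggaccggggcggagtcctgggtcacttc
Slc7a1: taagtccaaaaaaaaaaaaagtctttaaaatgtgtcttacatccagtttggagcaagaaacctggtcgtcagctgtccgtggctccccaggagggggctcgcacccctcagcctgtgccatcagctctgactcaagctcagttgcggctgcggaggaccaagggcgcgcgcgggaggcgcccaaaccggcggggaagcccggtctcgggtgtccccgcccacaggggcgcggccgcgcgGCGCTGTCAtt
Slc38a2: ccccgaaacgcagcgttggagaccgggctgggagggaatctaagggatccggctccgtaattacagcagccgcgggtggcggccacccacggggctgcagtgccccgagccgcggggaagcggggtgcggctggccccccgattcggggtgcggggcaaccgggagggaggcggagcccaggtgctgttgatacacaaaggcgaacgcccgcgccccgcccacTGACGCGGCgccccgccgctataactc
In the Slc7a11 promoter the matches spanned bases -66 to -58 on the gene's strand and -48 to -40 on the opposite strand, counted from the start. Of 32851 promoters of this length, 1129 (3.44%) held a C/EBP-ATF match and 13 (0.0396%) held at least 2. Antioxidant matches stood in 10.2% of all promoters and, beside Slc7a1 and Slc38a2, in 2 of the 3 promoters of Slc6a9. E-box matches stood in 6.02% of all promoters and in none of the 9. These are matches of letters only, and binding was not measured here.

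Total counts ranged from 6595514 to 31177756 per library, and the smallest library was replicate 3 of the 3D cultures with palmitate. Rn45s, a ribosomal RNA precursor, took 1.77% to 5.38% of the counts. Libraries within the 3D condition with palmitate differed more from each other (chi-square per gene of 16.4 to 19.7) than those within the other conditions (3.90 to 9.30). Of 5 epithelial markers, all were well measured, with condition means from 263 to 1510 CPM (read counts scaled to a common library size by edgeR's TMM method). Of 8 markers of other cell types, Cd3e and Adgre1, of T cells and macrophages, were at 0 in every library, and only the fibroblast marker Pdgfra passed the filter on low counts. Pdgfra had 98.8 ± 10.1 CPM in 3D and 30.4 ± 0.82 CPM in 2D with palmitate (SD, n = 3 each), and whether this bears on the transporter genes was not tested. Nothing in the labels says that the 3 libraries of a condition came from separate cultures, so p-values measure the spread between these samples, which may be technical. After that filter 12575 genes were tested, and all 10 transporter genes were among them.

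Slc7a11 was the member with the widest range between conditions. It spans 551.1 kb of chromosome 3 (chr3:49892526-50443614, minus strand, GRCm38), and no annotated exon of another gene overlaps its exons. The 3 spheroid libraries without palmitate gave 429, 404 and 455.5 CPM, the 3 with palmitate 402, 483 and 505 CPM, and the 3 monolayer libraries 79.0, 81.4 and 66.0 CPM. All 6 spheroid libraries therefore lay far above all 3 monolayer libraries, and the spheroid conditions overlapped. With palmitate in both, the level was 6.13-fold higher in 3D than in 2D (464 ± 54.1 CPM against 75.5 ± 8.27 CPM, SD, n = 3 each), a log2 fold change of 2.62 with a standard error of 0.099. By the size of its log2 fold change Slc7a11 stood at place 295 of the 12575 genes. In bulk RNA a larger share of cells with the transcript and more transcript in every cell cannot be told apart.

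Its heavy chain partner went the other way. Slc3a2 (chr19:8706882-8723369, minus strand) had 257, 232 and 239 CPM in spheroids without palmitate, 314, 293 and 248.5 CPM with palmitate, and 421, 398 and 431 CPM in monolayers. Every monolayer library lay above every spheroid library, and the log2 fold change of 3D against 2D was -0.54 (SE 0.079). Slc7a5 (chr8:121881150-121907694, minus strand), the light chain of LAT1, followed the heavy chain, with 174, 176 and 172 CPM, then 225, 209 and 162 CPM, and 305, 319.6 and 301 CPM in the same order. Its log2 fold change was -0.63 (SE 0.091), and its conditions with palmitate did not overlap either. Slc7a11 and Slc7a5, the members that encode light chains of this heavy chain, thus stood on opposite sides of 0 in this comparison.

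**Figure D1:**
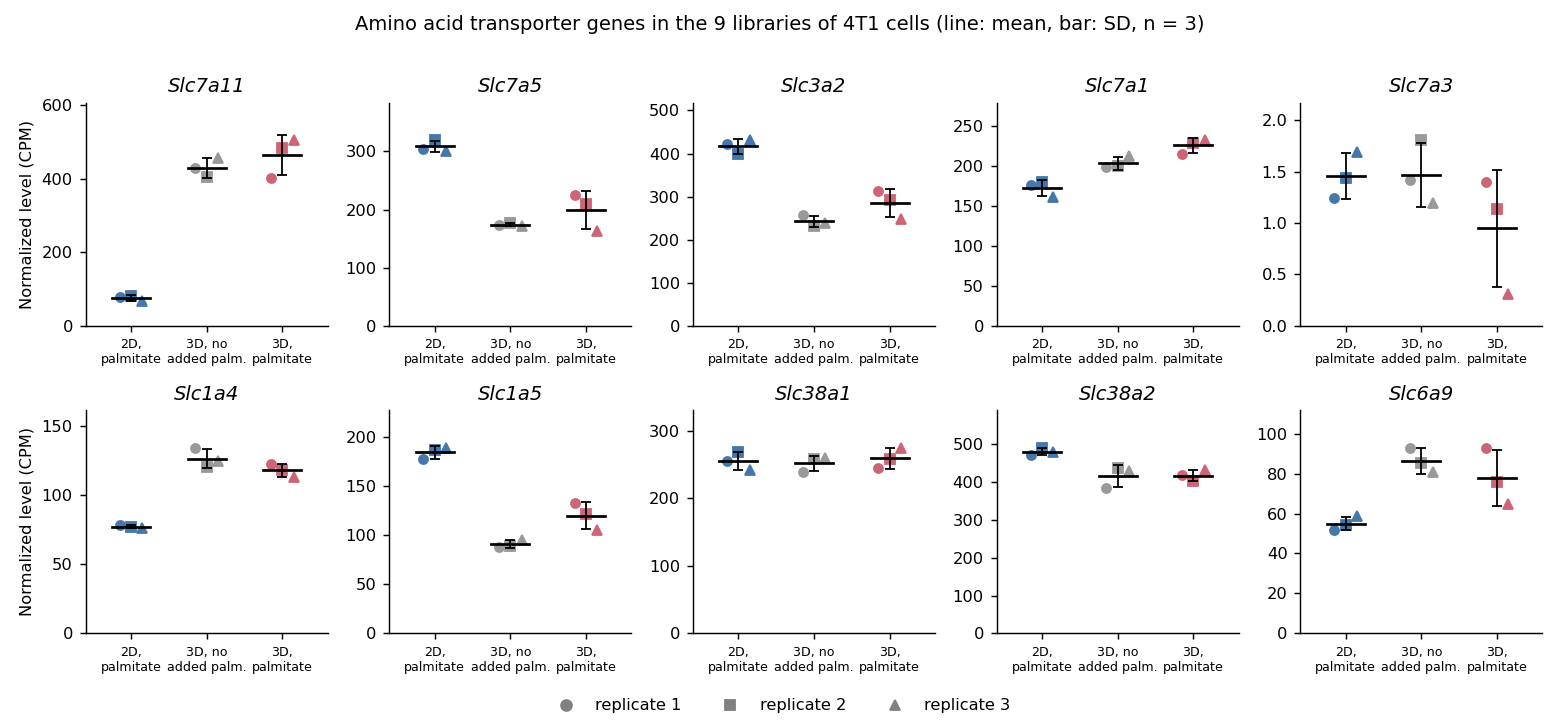
TMM-scaled CPM of the 10 transporter genes in each library (points) with the mean and SD of each condition (3 libraries); each panel is one gene with its own vertical axis. Slc7a11 lay at 66.0 to 81.4 CPM in 2D and at 402 to 505 CPM in 3D, whereas Slc7a5, Slc3a2 and Slc1a5 were highest in 2D.

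The ratio of the light chain counts to those of Slc3a2 within a library does not depend on library scaling. The log2 ratio of Slc7a11 to Slc3a2 was 0.74, 0.80 and 0.93 in spheroids without palmitate, 0.36, 0.72 and 1.02 with palmitate, and -2.41, -2.29 and -2.71 in monolayers. With palmitate in both, the ratio was 9.01-fold higher in 3D, a difference of 3.17 on the log2 scale. It was not recomputed with the trend of every library with GC and transcript length taken out. That removal took the log2 fold change to 2.26 for Slc7a11 and to -0.48 for Slc3a2. The log2 ratio of Slc7a5 to Slc3a2 ranged from -0.61 to -0.32 over all 9 libraries, and the conditions overlapped. Its means were -0.48 ± 0.080 without palmitate in 3D, -0.53 ± 0.076 with it and -0.43 ± 0.10 in 2D (SD, n = 3 each). With against without palmitate in 3D, the Slc7a11 ratio differed by -0.12 and the Slc7a5 ratio by -0.049, with p-values of 0.7 and 0.4 in a two-sided exact permutation test, for which 0.1 is the smallest value that 3 against 3 libraries allow.

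**Figure D2:**
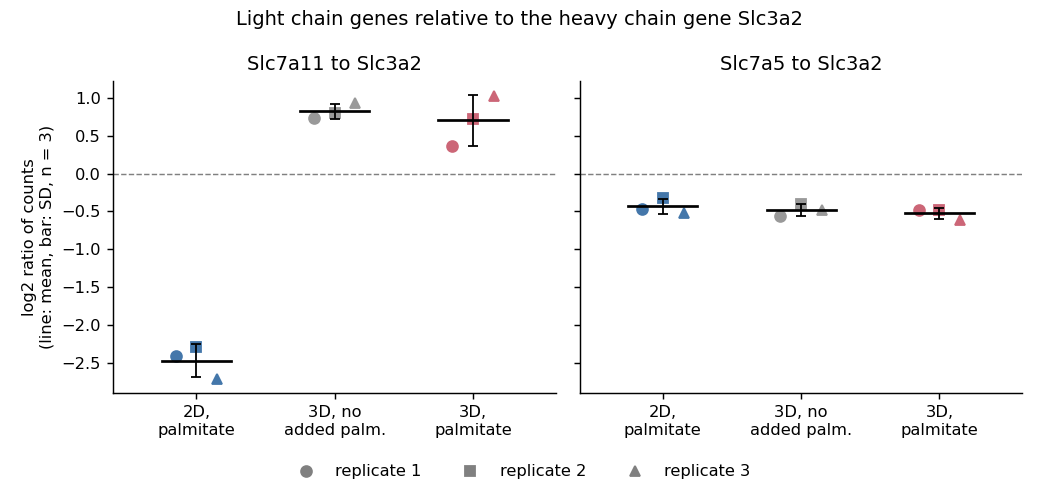
Log2 ratio of the Slc7a11 count (left) and the Slc7a5 count (right) to the Slc3a2 count in each library (points), with the mean and SD of each condition. The Slc7a11 ratio lay between -2.71 and -2.29 in 2D and between 0.36 and 1.02 in 3D, while the Slc7a5 ratio overlapped across the 3 conditions.

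Among the neutral amino acid exchangers, Slc1a5 and Slc1a4 also stood apart in opposite directions. Slc1a5 (chr7:16781340-16798274, plus strand), the glutamine exchanger ASCT2, had 87.6, 89.2 and 95.2 CPM in spheroids without palmitate, 133, 121.5 and 105 CPM with it, and 177, 187 and 189 CPM in monolayers, with a log2 fold change of -0.61 (SE 0.078) in 3D against 2D. None of its 3 conditions overlapped with another. Slc1a4 (chr11:20302180-20332713, minus strand), the exchanger ASCT1 of alanine, serine and cysteine, had 134.5, 120.4 and 125 CPM, then 123, 118 and 113 CPM, and 78.5, 76.9 and 76.3 CPM in the same order, a log2 fold change of 0.62 (SE 0.064). All spheroid libraries lay above all monolayer libraries for Slc1a4.

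Slc7a11 was not the sole member that was higher in 3D. The cationic amino acid carrier Slc7a1 (chr5:148327410-148399904, minus strand) had 198, 199.7 and 213 CPM in spheroids without palmitate, 216, 229 and 233 CPM with it, and 176, 180.5 and 161 CPM in monolayers, a log2 fold change of 0.39 (SE 0.065) in 3D against 2D. The palmitate conditions of Slc7a1 did not overlap, yet once the trend of every library with GC and transcript length was taken out, its log2 fold change was 0.049. The glycine transporter Slc6a9 (chr4:117834506-117875198, plus strand) had 93.0, 85.3 and 80.55 CPM, then 92.7, 76.0 and 64.8 CPM, and 51.9, 54.3 and 58.7 CPM in the same order, a log2 fold change of 0.52 (SE 0.10). Exons of Slc6a9 overlap those of Ccdc24 and Gm17114 on the opposite strand, and the strand setting of the counting is not given in the sources used here, so reads of these genes may not have been kept apart.

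The other members were closer to equal. Slc38a2 (chr15:96687392-96699730, minus strand), the amino acid-regulated carrier SNAT2, had 383, 437 and 429.8 CPM, then 419, 402 and 431 CPM in spheroids and 472, 491.5 and 479.8 CPM in monolayers, a log2 fold change of -0.21 (SE 0.063). Slc38a1 (chr15:96571418-96642913, minus strand), or SNAT1, lay between 239 and 275 CPM in all 9 libraries, with all 3 conditions overlapping and a log2 fold change of 0.017 (SE 0.066), which was -0.32 after removal of the GC and length trend. Slc7a3 (chrX:101079210-101086020, minus strand) was close to the limit of detection, with 2 to 45 counts per library and 0.31 to 1.81 CPM, and its log2 fold change of -0.38 had a standard error of 0.31.

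In 3D against 2D, 8 of the 10 members were called at the adjusted p threshold of 0.05 by the quasi-likelihood test of edgeR, 4 higher and 4 lower, beside 68.3% of all tested genes (34.5% higher and 33.9% lower), and 8 did not overlap between conditions, beside 69.4% of all genes. Since members were selected with this comparison known, nothing is read from these counts. The median log2 fold change was -0.095 over the 10 members and -0.21 over the 9 members other than Slc7a11, against 0.0083 over all genes. Apart from Slc7a11, the members lay between -0.63 and 0.62.

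**Figure D3:**
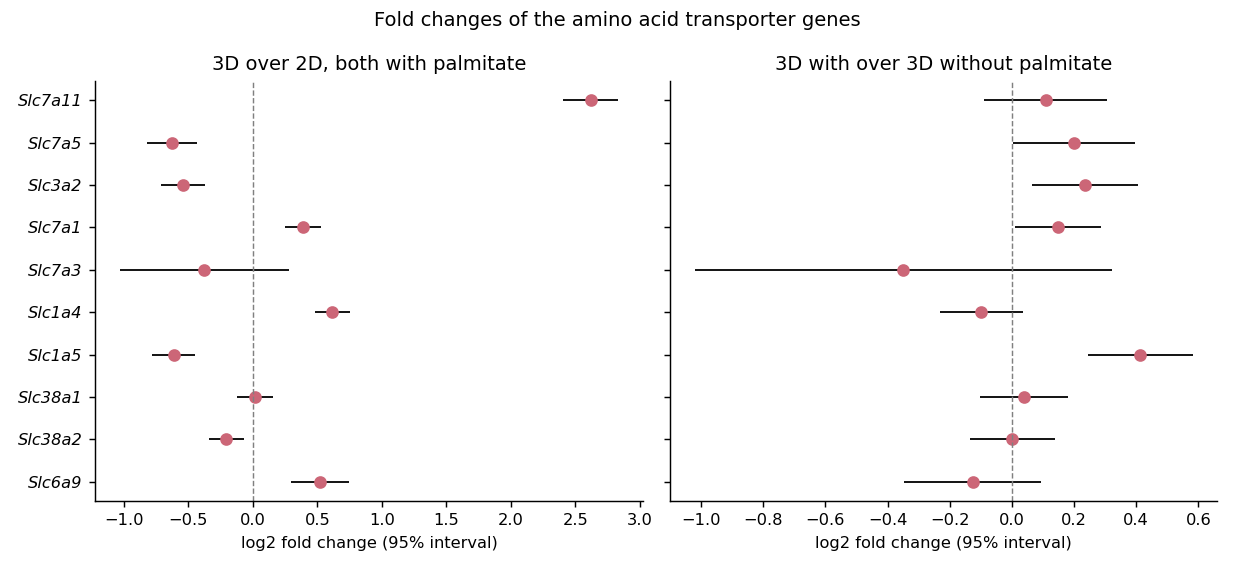
Log2 fold change (points) with its 95% interval from the edgeR fit, not adjusted for the number of genes (lines), for each of the 10 genes in 3D against 2D cultures with palmitate (left) and in 3D cultures with against without palmitate (right); the 2 horizontal axes differ in range. On the left Slc7a11 stood at 2.62 and the others between -0.63 and 0.62, and on the right all lay between -0.35 and 0.41.

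With palmitate added to spheroids, 1 of the 10 genes passed the test. Slc1a5 was higher with palmitate by 0.41 on the log2 scale (SE 0.079, edgeR adjusted p = 0.0161), and all 3 libraries with palmitate lay above all 3 without. This count of 1 member called stands beside 2.19% of all tested genes, with 1.38% higher and 0.811% lower, and 0 members were called lower. Groups did not overlap for 2 members, Slc1a5 and Slc7a1, beside 18.6% of all genes. The call for Slc1a5 was lost when the 2 spheroid conditions were fitted alone (log2 fold change 0.40, edgeR adjusted p = 0.0654) and with the Rn45s share as a covariate (0.36, edgeR adjusted p = 0.165). A block for the replicate number ended the call too. It was also lost without any 1 of the 3 libraries lacking palmitate or replicate 2 with it (0.39 to 0.45, edgeR adjusted p = 0.0539 to 0.0935).

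For Slc7a11 the difference with palmitate was 0.11 on the log2 scale (SE 0.092, 95% interval -0.089 to 0.31, edgeR adjusted p = 0.596), within the spread of its libraries. After removal of the GC and length trend it was 0.19 and past the threshold (edgeR adjusted p = 0.0253), as were Slc3a2 at 0.21 (edgeR adjusted p = 0.0267) and Slc7a1 at 0.18 (edgeR adjusted p = 0.0185), in a fit that called 965 genes in all rather than 275. Slc3a2 differed by 0.24 (SE 0.080, edgeR adjusted p = 0.142), Slc7a5 by 0.20 (SE 0.092, edgeR adjusted p = 0.279) and Slc7a1 by 0.15 (SE 0.065, edgeR adjusted p = 0.26), all with an unadjusted p-value under 0.05. Without replicate 3 of the spheroids with palmitate, Slc7a5 (0.32, edgeR adjusted p = 0.00181) and Slc3a2 (0.32, edgeR adjusted p = 0.00274) passed the threshold, in a fit that called 1901 genes. The remaining 5 members had log2 fold changes from -0.35 (Slc7a3, SE 0.31) to 0.038 (Slc38a1, SE 0.066), with edgeR adjusted p-values from 0.451 to 0.995. The median over the members was 0.073, against 0.0077 over all genes.

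Replicates 3 and 1 stood at opposite ends of that condition for most members. In the 3D libraries with palmitate, replicate 3 was the lowest of the 3 for Slc7a5, Slc3a2, Slc1a5, Slc1a4, Slc6a9 and Slc7a3, and the highest for Slc7a11, Slc7a1, Slc38a1 and Slc38a2. Replicate 1 was the highest for the former genes and the lowest for Slc7a11, Slc7a1 and Slc38a1, while replicate 2 was the lowest for Slc38a2. Total counts of replicates 1, 2 and 3 were 27047217, 13451709 and 6595514. The part of either library in the palmitate results beyond the fits without it was not tested.

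Levels were compared between genes per kilobase of annotated exon. In monolayers the heavy chain Slc3a2 was first of the 10 at 138 ± 5.58 CPM per kb, followed by Slc38a2 at 103 ± 2.11, Slc7a5 at 87.7 ± 2.78 and Slc1a5 at 66.7 ± 2.33 CPM per kb (SD, n = 3 each), and none of these neighbours overlapped. Slc7a11 was at place 9 of 10 there, at 7.67 ± 0.84 CPM per kb, above Slc7a3 alone. In spheroids without palmitate it was at place 4, at 43.6 ± 2.64 CPM per kb, below Slc38a2 at 89.4, Slc3a2 at 80.3 and Slc7a5 at 49.5 CPM per kb, and its libraries overlapped with none of its neighbours.

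In spheroids with palmitate Slc7a11 was again at place 4, at 47.1 ± 5.50 CPM per kb, and its libraries overlapped with those of Slc7a5 at 56.5 ± 9.28 and Slc1a5 at 43.3 ± 5.06 CPM per kb. Slc3a2 and Slc38a2 were the first 2 in both spheroid conditions and overlapped in each. The places of Slc7a11 were the same (9, 4 and 4) with the length of the longest annotated transcript, while Slc38a2 and Slc7a5 traded places in monolayers. With that length Slc3a2 stood first in all 3 conditions without overlap, and in spheroids without palmitate Slc7a11 overlapped with Slc7a5.

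**Figure D4:**
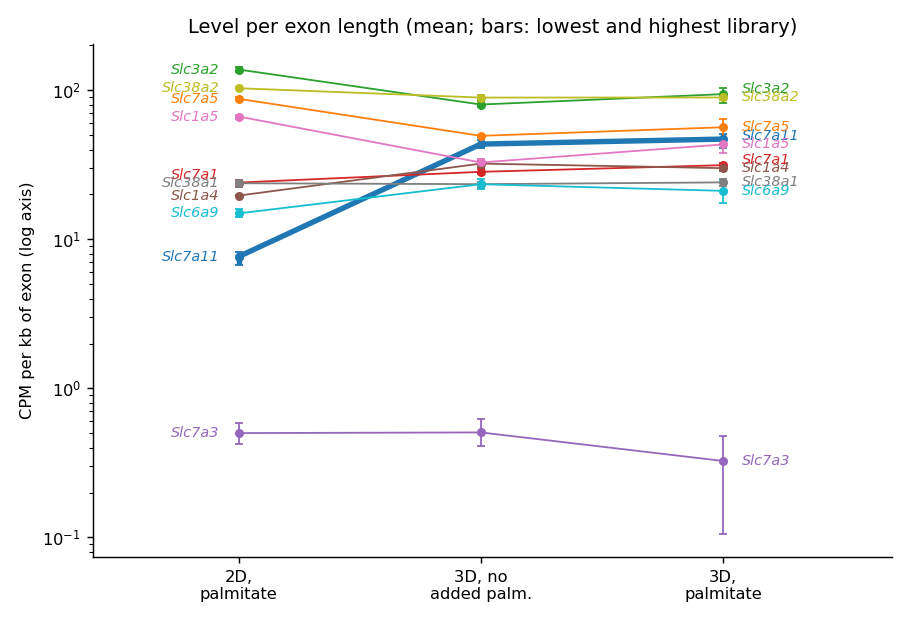
Mean level of each transporter gene in CPM per kilobase of annotated exon in the 3 conditions (log axis; bars run from the lowest to the highest of 3 libraries and lines join the means of one gene). Slc7a11 went from place 9 of 10 in 2D (7.67 CPM per kb) to place 4 in both 3D conditions (43.6 and 47.1 CPM per kb).

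The genes whose log2 CPM followed that of Slc7a11 most closely over the 9 libraries were Antxr2, Neo1, Ube4a, Man1a and Susd6, with Pearson correlations from 0.9982 to 0.9988, and all 5 were higher in 3D, from 1.12 (Ube4a) to 2.18 (Man1a) on the log2 scale. Those closest to Slc7a5 were Rcc1, Ttll12, Plekhj1, Uqcrc1 and Rraga, with correlations from 0.9930 to 0.9947, and all 5 were lower in 3D, from -0.48 (Rraga) to -0.90 (Rcc1). The libraries fall into a 2D and a 3D cluster, and these values mainly describe that separation.

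In the lists below, the counts called in 3D against 2D stand beside 34.5% of all tested genes called higher and 33.9% called lower. Of 45 other amino acid carrier genes, 15 passed the filter on low counts, and in 3D against 2D 7 of them were called higher and 3 lower, and the median log2 fold change was 0.34 against 0.0083 over all genes. The largest was that of Slc43a2, the carrier LAT4 of branched-chain amino acids, at 2.99 (SE 0.085), with 42.6 ± 1.06 CPM in 3D and 5.26 ± 0.55 CPM in 2D (SD, n = 3 each, both with palmitate). Slc36a4, a carrier of proline and tryptophan, was higher by 1.76 (SE 0.25), Slc7a6, the light chain y+LAT2, was lower at -0.74 (SE 0.074) and Slc38a7 was lower at -0.37. With palmitate in 3D, 0 of the 15 were called by edgeR.

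Of 18 genes of cystine and glutathione metabolism 15 were tested, of which 8 were called higher and 6 lower in 3D against 2D (median 0.28). After removal of the GC and length trend 7 were called higher and 5 lower, and the median was 0.077. Cd44 had 1421 ± 112 CPM in 3D and 472 ± 27.6 CPM in 2D with palmitate, a log2 fold change of 1.59. Some forms of its product are known to hold xCT at the cell surface, and counts per gene do not tell its transcript forms apart. Txnrd1, the cytosolic thioredoxin reductase, was higher by 0.92. Chac1, which degrades glutathione, was lower at -1.61, and Cth, which makes cysteine from cystathionine, was lower at -1.09. With palmitate in 3D, 1 of the 15 was called: Chac1 rose from 15.9 ± 0.84 CPM to 24.4 ± 3.17 CPM (SD, n = 3 each), a log2 fold change of 0.65 (edgeR adjusted p = 0.00178) that passed the threshold in all 9 fits that each left out 1 library.

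**Figure D5:**
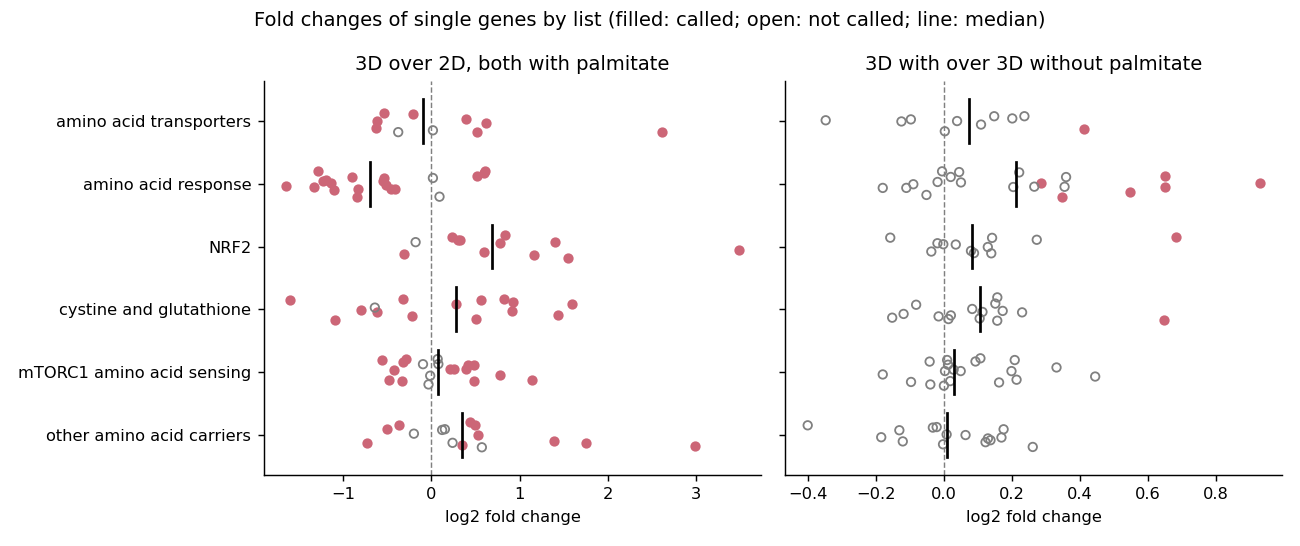
Log2 fold change of single genes in 5 lists and in the transporter genes, in 3D against 2D with palmitate (left) and with against without palmitate in 3D (right); filled points passed an edgeR adjusted p-value of 0.05, open points did not, and black lines are medians. On the left the median was -0.69 for the amino acid response and 0.69 for the NRF2 genes.

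The regulators of the 2 known inputs to Slc7a11 were read beside it. All 12 genes of the NRF2 list were tested, and 10 were called higher and 1 lower in 3D against 2D (median 0.69), beside 34.5% and 33.9% of all genes. Nqo1, a quinone reductase, had 247 ± 17.2 CPM in 3D and 22.2 ± 0.33 CPM in 2D with palmitate (SD, n = 3 each), a log2 fold change of 3.49. Nfe2l2, which encodes NRF2, was higher by 1.16, as were the genes of its inhibitor Keap1 by 0.59 and of the competing repressor Bach1 by 1.40. Srxn1, sulfiredoxin, was higher by 1.55, and the gene called lower was Taldo1, transaldolase, at -0.31. With palmitate in 3D 1 of the 12 was called, the heme oxygenase gene Hmox1 (log2 fold change 0.68, edgeR adjusted p = 0.000918), and Nfe2l2 (-0.038, edgeR adjusted p = 0.882), Keap1 (-0.020, edgeR adjusted p = 0.907) and Bach1 (-0.16, edgeR adjusted p = 0.286) were not.

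All 20 genes of the amino acid response list were tested, and 15 were called lower and 3 higher in 3D against 2D (median -0.69), beside 33.9% and 34.5% of all genes. Atf4 had 313, 330.2 and 312 CPM in spheroids with palmitate and 705, 669 and 739 CPM in monolayers, a log2 fold change of -1.14. Asns, asparagine synthetase, was lower at -1.33 and Ddit3, which encodes CHOP, at -0.85, whereas Eif2ak3, which encodes the kinase PERK, was higher by 0.61 and Atf5 by 0.60. Cebpb, of the C/EBP family, was the other gene called higher, at 0.52. Its conditions overlapped, with 121 to 200 CPM in 3D and 109 to 124 CPM in 2D, both with palmitate. Slc7a11 was higher in 3D, as were Slc1a4, Slc6a9 and Slc7a1 among the members and Eif2ak3, Atf5 and Cebpb in this list. Atf4, Asns and Ddit3 were lower, like the members Slc7a5, Slc3a2, Slc1a5 and Slc38a2. These are transcript levels, and whether the regulators act on the transporter genes was not tested.

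With palmitate in 3D, 6 of the 20 (30%) were called higher and 0 lower, beside 1.38% and 0.811% of all genes (median 0.21, against 0.0077 over all genes). With the 2 spheroid conditions alone or the Rn45s share as a covariate, 1 of the 20 was called higher. These fits called 43 of 12243 and 27 of 12575 genes higher. Ppp1r15a, whose product reverses phosphorylation of eIF2α, had the smallest p-value, with 11.5, 11.6 and 10.5 CPM without and 21.4, 20.3 and 23.0 CPM with palmitate, a log2 fold change of 0.93 (edgeR adjusted p = 9.72e-05). Atf3, a stress transcription factor, rose by 0.65 (edgeR adjusted p = 0.0105), and the other 4 were Sesn2, Asns, Psat1 and Stc2. Atf4 (0.20, edgeR adjusted p = 0.115) and Ddit3 (0.27, edgeR adjusted p = 0.209) did not pass. Only the call for Ppp1r15a held in all 9 fits that each left out 1 library, which called 1 to 10 of the 20 higher. The fit without replicate 3 of the spheroids with palmitate called 10 higher and 1 lower, beside 1095 of 12787 genes called higher. Without replicate 2 of the spheroids lacking or with palmitate 1 was called higher, beside 48 of 12797 and 49 of 12761 genes. Without replicate 3 of the spheroids lacking it 2 were called higher, beside 42 of 12712 genes.

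Of 20 genes of amino acid sensing by mTORC1 in the table, 19 were tested, with 8 called higher and 6 lower in 3D against 2D (median 0.070) and 0 called with palmitate by edgeR. Rptor and Mtor, subunits of the complex, were higher by 0.78 and 0.39, while Rraga, a Rag GTPase, was lower at -0.48 and Lamtor2, of its lysosomal anchor, at -0.42.

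The C/EBP-ATF letters printed above for Slc7a11 also stood in promoters of 4 of the 20 amino acid response genes, Asns, Atf3, Nupr1 and Vldlr. Of genes with a promoter at hand, they stood in 1 of 13 for cystine and glutathione (Chac1), 1 of 35 other carriers (Slc7a7) and 1 of 19 for mTORC1 (Lamtor4). Of all single promoters 3.44% held them. The list counts are an unlike measure, since they count genes with a match in any of their promoters. The 20 amino acid response genes had 24 promoters, the 13 for cystine and glutathione 21, and the 35 other carriers 48. The antioxidant letters, with 0 matches for Slc7a11, stood in 3 of 11 NRF2 genes (G6pdx, Mafg and Nfe2l2). They also stood in 3 of the 20 amino acid response genes and 3 of 13 for cystine and glutathione. Of the 13 promoters with at least 2 C/EBP-ATF matches, 5 belonged to tested genes. Besides Slc7a11 these were Chchd10, Sgsm3 and Tspyl3, with log2 fold changes of -1.73, -0.41 and -0.42 in 3D against 2D, and Zfp672 at 0.73, so the genes with this feature lay on both sides of 0.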

How the data were processed

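For each library the authors deposited whole-number counts of reads on genes, not normalized. Per the study's methods they cleaned single-end reads with fastq-mcf, checked them with FastQC 0.11.9, aligned them to GRCm38 with HISAT2 2.1.0 and counted them with HTSeq-count. The annotation release and strand setting are not given in the sources used here.

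The tests used edgeR 4.0.16 (R 4.3.3): filterByExpr, TMM scaling, and a quasi-likelihood fit with condition as the term over all 9 libraries. Genes were called at a Benjamini-Hochberg adjusted p-value under 0.05 over 12575 genes. Both comparisons share the 3D libraries with palmitate. DESeq2 1.42.0, of which the study used another version, was an alternative, beside other scalings, filters, covariates and left-out libraries. The members and lists were chosen with earlier results of these data known. All 10 members are named, and in each other list the 2 genes per direction with the smallest p in each comparison, regulators, and the 5 genes nearest to Slc7a11 and to Slc7a5. Other genes named were chosen after their values were seen. Of 139 list entries, 3 matched by synonym and 1 did not match. Lengths and positions are from GENCODE M21. Log2 CPM used a prior count of 2 and ratios one of 0.5. On simulated counts of 12415 genes, edgeR recovered 75 of 100 genes changed 1.5-fold and 93 of 100 changed 2-fold in the palmitate comparison, with 4 false calls. In 3D against 2D it recovered 72 and 93, with 14 false calls. The simulation gave each gene the same spread in all libraries, whereas the 3D libraries with palmitate differed more from each other than the rest. It also changed only 100 genes at each fold, whereas 68.3% of all tested genes were called in 3D against 2D. These numbers may therefore not carry over to the data. No libraries were duplicates. Precision is lowest for Slc7a3, which had few counts.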

Additional observations from a re-analysis of the deposited data

How the results depend on the processing

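In 3D against 2D, 8 members were called in each of 9 alternatives and 7 to 8 with 1 library left out, though not the same 8 after removal of the GC and length trend, where Slc7a1 (0.049) was no longer called and Slc38a1 (-0.32) was, and the log2 fold change of Slc7a11 was 2.26 to 2.62 and 2.53 to 2.71. Without replicate 2 of the 3D cultures with palmitate Slc38a2 (-0.18) was not called. All genes called in 3D against 2D numbered 8594 of 12575 in the main fit. In the alternatives they ranged from 7841 of 11094, with at least 10 counts in every library, to 8960 of 12575 after removal of the GC and length trend. With no filter on low counts they were 8897 of 18522. With 1 library left out they numbered 7977 to 8866, and nothing is read from the member counts. With palmitate in 3D, 1 member and 8 genes of the other lists were called. These counts were 0 and 3 with the 2 conditions alone, 0 and 5 with the replicate block, 4 and 13 after removal of the GC and length trend, which took Slc7a11 to 0.19 (edgeR adjusted p = 0.0253), and 0 and 3 with the Rn45s share as a covariate. With 1 library left out they were 0 to 3 and 3 to 23, both highest when replicate 3 of 3D with palmitate was left out. All genes called with palmitate numbered 275, and 77, 111, 965 and 44 in the same order, 617 with no filter on low counts, and 71 to 1901 with 1 library left out. Scaling by library size alone called 227, of which 106 were higher, against 173 of 275.

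Differences near 0 changed sign. Slc38a1 in 3D against 2D was -0.012 with no filter and -0.32 after removal of the GC and length trend, and -0.028 to 0.055 with 1 library left out. With palmitate it was -0.0063 to 0.077 with 1 library left out. Slc38a2 with palmitate was -0.0014 with RLE scaling, -0.022 with library size alone, -0.020 with no filter, -0.0089 with at least 10 counts in every library, -0.0066 with the 2 conditions alone, -0.0016 with DESeq2, and -0.056 to 0.035 with 1 library left out. The ratio of Slc7a11 to Slc3a2 with against without palmitate was -0.28 to 0.051, above 0 without replicate 1 of the 3D cultures with palmitate. The cause of these shifts was not tested.

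Replicate numbers are shared between conditions in the labels. Deviations of same-numbered libraries correlated at -0.24 to 0.15 (median -0.051, 9 pairs), and those of other numbers at -0.17 to 0.28 (median 0.027, 18 pairs). With deviations taken within only 3 libraries per condition, this cannot decide whether the numbers pair the libraries. With the replicate block Slc1a5 with palmitate, at 0.41, was no longer called (edgeR adjusted p = 0.0519), and 3 of the 20 amino acid response genes were called higher. That fit called 73 of 12575 genes higher with palmitate. Depth limits Slc7a3, with 2 to 45 counts.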
